A study of Mus musculus with 36 samples.

Results

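Hindlimb muscle RNA of adult and newborn mice was put together on the same oligonucleotide microarray in 4 of the 36 arrays of this time course. Each of these 4 arrays paired an animal of 20 weeks with an animal of 1 week of the same strain, while the other 32 arrays paired successive ages. The arrays were found by their labelled ages, 2 in mdx and 2 in control mice, and no measured value entered that choice. The mdx mouse lacks full-length dystrophin because of a premature stop codon in the Dmd gene, and was bred here from C57Bl/10ScSn mdx/J, C57Bl/6NCrl and CBA/JCrl mice. Control mice were C57Bl/10ScSnOlaHsd, so the strains differed in genetic background as well as in dystrophin. Both strains were untreated, and each RNA came from 1 individual, called A or B at each age. The arrays held 20-week animal A against 1-week animal B, and 20-week animal B against 1-week animal A, in each strain, so 8 animals entered the comparison and none was used on more than 1 of these arrays. The arrays are named below by strain and by the letter of the 20-week animal.

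The values were natural log ratios, turned so that a positive value is higher at 20 weeks and a negative value is higher at 1 week. A change of 1 on this scale is a change by the base of the natural logarithm. Each strain's mean over its 18 arrays was first subtracted from every spot to remove the difference between dyes, and the 2 spots of a probe were averaged. A ratio holds no level, so neither the abundance of a transcript nor mdx against control at one age can be read from it. In whole muscle, fewer cells of a type and less RNA per cell cannot be told apart.

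In the first weeks after birth mouse muscle stops adding many new nuclei, its fibres lengthen and thicken, and the embryonic and slow forms of the contractile proteins give way to adult fast forms. Several paternally or maternally imprinted genes that promote or restrain growth before birth are turned down in many organs after birth. Connective tissue cells that lay down collagen and basal lamina are also most active while the muscle grows.

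The RefSeq promoters of the genes that carried the pattern are shown first, with 4 imprinted genes that were much lower at 20 weeks and 3 genes of immune cells that were higher. Each runs 5′ to 3′ on the gene's strand from 250 bases before to 50 bases after the transcript start of build GRCm38.p6. Capitals mark the motif CCAAT, the motif TATAAA or the motif GGGCGG on either strand, overlapping matches being joined. Dlk1 lies at chr12:109452573-109452872 on the plus strand, with the transcript used starting 338 bases from the gene's outer end. Meg3 lies at chr12:109540746-109541045, Mest at chr6:30733256-30733555 and Ndn at chr7:62348027-62348326, all on the plus strand. Ccl8 lies at chr11:82114935-82115234 and Retnla at chr16:48842359-48842658 on the plus strand, and Ccl6 at chr11:83593038-83593337 on the minus strand.
Dlk1: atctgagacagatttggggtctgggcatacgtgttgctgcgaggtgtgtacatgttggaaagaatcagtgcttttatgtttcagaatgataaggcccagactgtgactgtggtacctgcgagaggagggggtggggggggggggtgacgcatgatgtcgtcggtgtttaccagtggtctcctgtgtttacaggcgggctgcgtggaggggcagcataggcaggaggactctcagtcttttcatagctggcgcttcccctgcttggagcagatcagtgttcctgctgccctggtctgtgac
Meg3: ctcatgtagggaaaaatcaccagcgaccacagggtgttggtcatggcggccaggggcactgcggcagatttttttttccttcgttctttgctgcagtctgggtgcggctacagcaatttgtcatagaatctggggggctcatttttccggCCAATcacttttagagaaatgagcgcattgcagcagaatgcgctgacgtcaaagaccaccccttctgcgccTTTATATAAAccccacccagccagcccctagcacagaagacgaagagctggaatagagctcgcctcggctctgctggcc
Mest: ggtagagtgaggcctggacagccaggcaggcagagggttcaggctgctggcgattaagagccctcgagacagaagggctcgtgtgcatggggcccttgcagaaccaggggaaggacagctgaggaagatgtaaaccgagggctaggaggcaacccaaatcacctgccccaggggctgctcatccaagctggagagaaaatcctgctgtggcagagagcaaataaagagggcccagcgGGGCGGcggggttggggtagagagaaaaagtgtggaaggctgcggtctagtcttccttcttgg
Ndn: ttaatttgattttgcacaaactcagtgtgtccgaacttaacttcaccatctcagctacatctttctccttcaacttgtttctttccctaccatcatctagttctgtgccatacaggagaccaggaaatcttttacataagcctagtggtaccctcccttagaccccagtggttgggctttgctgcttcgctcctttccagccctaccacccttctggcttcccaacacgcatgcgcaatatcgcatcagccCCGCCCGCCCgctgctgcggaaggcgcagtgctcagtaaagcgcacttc
Ccl8: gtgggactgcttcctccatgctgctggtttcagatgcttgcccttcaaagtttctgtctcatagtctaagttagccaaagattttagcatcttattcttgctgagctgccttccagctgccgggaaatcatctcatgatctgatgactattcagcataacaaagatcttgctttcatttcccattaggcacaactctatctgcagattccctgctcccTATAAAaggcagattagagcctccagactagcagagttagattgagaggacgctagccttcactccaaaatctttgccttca
Retnla: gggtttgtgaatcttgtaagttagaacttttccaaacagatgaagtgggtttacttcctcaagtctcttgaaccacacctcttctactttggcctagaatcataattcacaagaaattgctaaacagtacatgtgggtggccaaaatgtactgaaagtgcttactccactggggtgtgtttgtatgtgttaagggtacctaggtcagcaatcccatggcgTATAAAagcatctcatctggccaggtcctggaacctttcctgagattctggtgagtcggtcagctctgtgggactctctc
Ccl6: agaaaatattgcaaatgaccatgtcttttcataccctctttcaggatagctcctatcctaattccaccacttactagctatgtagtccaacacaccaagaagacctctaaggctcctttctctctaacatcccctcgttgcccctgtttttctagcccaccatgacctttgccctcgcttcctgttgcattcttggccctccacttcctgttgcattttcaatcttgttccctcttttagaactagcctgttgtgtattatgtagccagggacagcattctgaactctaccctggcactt

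TATAAA stood in the promoters of Meg3, Ccl8 and Retnla and GGGCGG in those of Mest and Ndn, while Dlk1 and Ccl6 held none of the marked letters in this window. A promoter was given for 52 of 64 genes with a probe that rose, 88 of 133 genes with a probe that fell and 5168 of 6547 genes measured, by the test described below. TATAAA was found in the promoters of 13 of these 52 genes that rose, 10 of the 88 that fell (11.4%) and 618 of all 5168 (12.0%). GGGCGG was found in 44.2%, 61.4% and 56.1%, and CCAAT in 32.7%, 36.4% and 38.6%. These shares are descriptions with no test, and a match is not a binding site.

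Of 6754 named probes, 1549 (22.9%) had one direction in all 4 arrays, 721 (10.7%) being higher at 20 weeks and 828 (12.3%) higher at 1 week. Their median absolute shared change was 0.34, against 0.14 for all probes, and this choice by direction carries no test. The rule has 0 as its threshold, and the members nearest to it were Tnfrsf11b, Tbx5 and Acadl, each with 1 array within 0.001 of 0, while Nelfcd, Olfr32 and Slc25a5 lay as near on the other side. The shared change, the mean of both strains, was tested with limma over the 4 arrays, with strain as a term and the p adjusted over all 6754 probes. By this test 198 probes (2.93%) of 197 genes passed an adjusted p of 0.05, of which 65 (0.962%) rose and 133 (1.97%) fell. Of these, 194 had one direction in all 4 arrays (64 that rose and 130 that fell). The called rises had a median of 0.94 and the called falls a median of -1.002. Past 1 in size were 100 probes with one direction, 72 of them lower and 28 higher at 20 weeks.

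With the dye removed, the array of mdx 20-week animal B stood apart from the others. Across probes its ratios correlated with r = 0.10 with the other mdx array, 0.31 with control array B and 0.04 with control array A. The other 3 pairs of arrays had r of 0.48, 0.51 and 0.60 (probes are not independent replicates). Without dye centring the same correlations of this array were 0.36, 0.23 and 0.05. Those of the other 3 pairs were 0.10, 0.57 and 0.30, in the same order. Its standing apart by correlation thus depended on the centring, and ratios without it still hold the dye difference. The SD of its ratios over probes was 0.316, against 0.454 for the other mdx array and 0.410 and 0.530 for control arrays B and A. Duplicate spots on it correlated at r = 0.88, within the range of 0.78 to 0.88 of the 4 arrays. Without this array 503 probes passed (84 that rose and 419 that fell), 192 of the 198 among them. Without the array of mdx 20-week animal A 83 passed, 78 of them among the 198, and without control array A, or without control array B, 0 of 6754 passed. With a control array left out, the residual error before moderation comes from the mdx pair alone, the arrays that correlated at r = 0.10. In these fits the lone array of a strain was assumed to vary like the pair of the other strain. With each probe's own variance in place of limma's moderated one 0 passed, and 1119 had an unadjusted p under 0.05 in the moderated fit. A fit of all 36 arrays, whose estimates are the same and whose errors come from the whole loop, called 865 (12.8%), 255 (3.78%) that rose and 610 (9.03%) that fell, with 195 of the 198 among them.

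**Figure D1:**
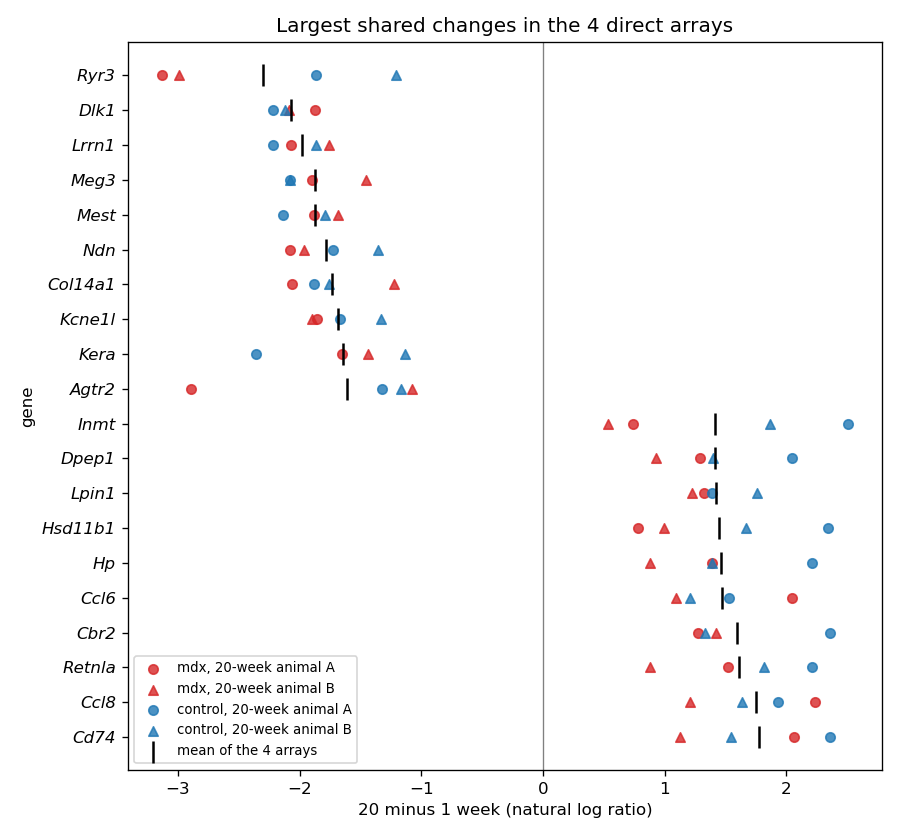
The 10 largest falls and 10 largest rises among probes that passed the test with one direction in all 4 arrays. The x axis is 20 minus 1 week as a natural log ratio, each symbol is 1 array (colour for strain, shape for the letter of the 20-week animal) and the black line is the mean. Dlk1 lies between -2.22 and -1.88 in all 4 arrays, whereas Inmt lies between 0.53 and 0.74 in mdx and between 1.87 and 2.50 in control mice.

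Of the 10 largest falls, 4 were those of the imprinted genes Dlk1, Meg3, Mest and Ndn. Dlk1, a Notch-like membrane protein of progenitor cells, was at -1.88 in mdx array A, -2.08 in mdx array B, -2.22 in control array A and -2.12 in control array B. Its shared change was -2.07 ± 0.11 (SE, n = 4 arrays; limma adjusted p = 0.00562), 7.96-fold lower at 20 weeks. Meg3, a non-coding RNA of the same imprinted cluster, was at -1.90 and -1.46 in mdx and at -2.08 in both control arrays. The 4 values of Dlk1 lay close together, and for both genes the control arrays were the lower ones without overlap.

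Mest, a hydrolase-like protein of mesoderm, was at -1.89, -1.68, -2.14 and -1.79 in the same order of arrays (mdx A, mdx B, control A, control B), a shared change of -1.87 ± 0.12. Ndn, a protein that restrains growth and is known from nerve cells and muscle progenitors, was at -2.08, -1.97, -1.73 and -1.36. All 4 arrays of both genes lay well below 0. The strains overlapped for Mest, and for Ndn both mdx arrays were the lower ones. Cdkn1c, an inhibitor of cyclin-dependent kinases, had a shared change of -1.45 ± 0.12, with arrays between -1.56 and -1.27. H19, a non-coding RNA, was at -0.57, -1.11, -1.64 and -1.43, and its mdx arrays were nearer 0 than its control arrays. Of the 23 probes of this list 6 fell and 0 rose (26.1% called), and 11 were below 0 in all 4 arrays, with a median of -0.06 against -0.01 over all probes. Over all probes 1.97% fell, 0.962% rose and 12.3% were below 0 in all 4 arrays. These shares are the background for this list and for each list below. The lists and their members were chosen with earlier results of these data known. An excess of a list over this background is therefore no independent support. Igf2, the growth factor gene next to H19, was not called and had a shared change of 0.28, its arrays lying between -0.17 and 0.86.

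Of 21 probes of embryonic and neonatal muscle genes 7 fell and 0 rose (33.3% called), with a median of -0.47. In this list 10 probes were below 0 in all 4 arrays and 5 had a shared change above 0, the highest being Ankrd1 at 0.39, which was not called. By array the list's median was -0.65 in mdx array A, -0.12 in mdx array B, -0.96 in control array A and -0.76 in control array B. The largest fall on the arrays was that of 1 probe of Ryr3, the ryanodine receptor of developing muscle, at -3.13 and -3.00 in mdx and -1.87 and -1.21 in control arrays A and B. Both mdx arrays were lower than both control arrays. The shared change of this probe was -2.30 ± 0.15 (SE, n = 4; limma adjusted p = 0.00562), while the 2 other probes of Ryr3 were at -0.06 and 0.06 and were not called. Casq2, the calsequestrin of heart and slow fibres, was at -1.10, -0.63, -2.30 and -1.87. Csrp3, a Z-disc protein, was at -0.73, -0.28, -1.61 and -1.90, and Tnni1, the slow troponin I, at -0.74, -0.31, -1.72 and -1.67. For these 3 genes the control arrays were lower than both mdx arrays without overlap, but no difference between strains passed the test (given below). Ckb, the creatine kinase of brain and early muscle, Nes, the intermediate filament nestin, and 1 of 3 probes of Ncam1, an adhesion protein of young fibres, fell by 0.96, 0.91 and 0.78. Without the array of mdx animal B 12 of the 21 probes fell.

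Slow fibre genes divided. Myoz2, a calcineurin-binding Z-disc protein, was at -1.37, -1.04, -1.90 and -1.61, and Tnnt1, the slow troponin T, at -1.59, -1.06, -1.61 and -1.43. Both were lower at 20 weeks in every array, as was Atp2a2, the slow calcium pump, whose shared change was -1.07 ± 0.14. Tpm3, which makes slow and cytoplasmic tropomyosins, rose instead, at 1.32, 0.87, 1.33 and 0.97. Of 8 slow fibre probes 3 fell and 1 rose, with a median of -0.46. Casq2 and Tnni1, counted above in the embryonic and neonatal list, are also slow fibre genes and are not among these 8. The 2 lists are thus not distinct programmes.

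Of 10 fast fibre probes 1 rose and 0 fell. Pvalb, the calcium buffer parvalbumin, was at 1.22, 0.47, 1.77 and 0.98, a shared change of 1.11 ± 0.19 (SE, n = 4; limma adjusted p = 0.0405). Actn3 and Tnni2, a Z-disc protein and a troponin of fast fibres, had shared changes of 0.49 and 0.37 and were above 0 in every array without being called. The shared change was above 0 in 8 of the 10, against 3292 of all 6754 probes, and 5 were above 0 in all 4 arrays, against 10.7% of all. The list's median was 0.40. Actn2 and Casq1 were the exceptions, at -1.07 and -0.39, and in both the array of mdx animal B lay above 0 and the other 3 below. The contractile and energy genes Acta1 and Ckm, which mark skeletal muscle, were at 0.11 and 0.23 and were not called.

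**Figure D2:**
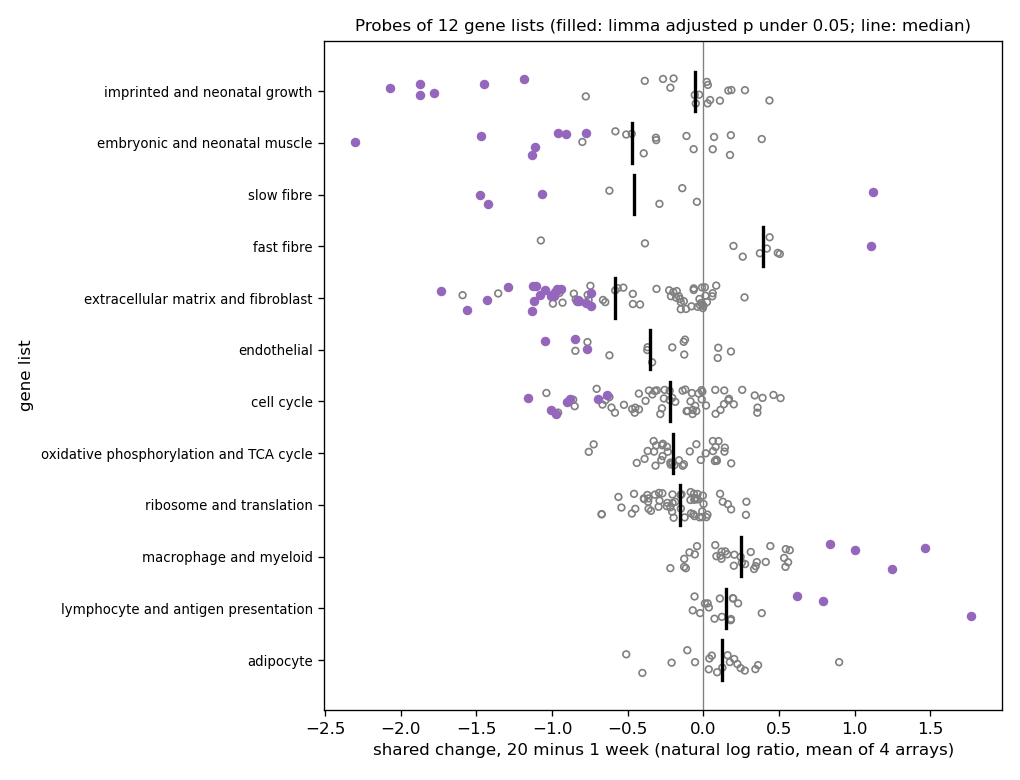
Probes of 12 gene lists by shared change. The x axis is the shared change from 1 to 20 weeks (natural log ratio, mean of 4 arrays), filled points passed limma's adjusted p and the black line is the list's median. Filled points lie left of 0 for matrix, imprinted, embryonic muscle, endothelial and cell cycle lists, and right of 0 for the macrophage and lymphocyte lists.

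The list of extracellular matrix and fibroblast genes had the highest number of called falls, and with 71 probes was also the longest. Of these probes 22 fell and 0 rose (31.0% called, against 2.93% of all probes). In this list 33 were below 0 in all 4 arrays, against 12.3% of all, and the median was -0.58. By array the list's median was -0.72 in mdx array A, -0.11 in mdx array B, -0.74 in control array A and -0.79 in control array B. The array of mdx animal B was therefore nearest to 0, and without it 37 probes fell. Col14a1, a fibril-associated collagen, was at -2.06, -1.23, -1.88 and -1.76. Lamb1, a laminin chain of basal lamina, was at -2.50, -1.13, -1.61 and -1.01, and Col1a1, the chain of the main fibril collagen, at -1.57, -0.63, -1.81 and -1.71. Col1a1 was least changed in the array of mdx animal B. Col11a1 was not called at -1.59 in 1 probe, while its other probe was at -0.06. Lama2, the laminin chain of muscle basal lamina that binds the dystrophin complex, fell by 1.00. Kera, a proteoglycan of connective tissue, had a shared change of -1.65 ± 0.21 and was at -2.36 in control array A and between -1.65 and -1.14 in the others.

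Other large falls were those of a receptor, a channel subunit and an adhesion protein. Agtr2, a receptor for angiotensin, was at -2.89, -1.07, -1.32 and -1.17, the array of mdx animal A being far from the others. Lrrn1, a leucine-rich membrane protein, was even over the arrays at -2.07, -1.76, -2.22 and -1.87, and Kcne1l, a potassium channel subunit, was at -1.85, -1.90, -1.66 and -1.33. Endothelial genes fell with 3 of 16 probes and a median of -0.35. These were Cdh5, the cadherin of vessels, at -1.21, -0.37, -1.38 and -1.23, Ramp2, which partners the adrenomedullin receptor, at -0.85 ± 0.13, and Cldn5, a tight junction protein, at -0.77 ± 0.12. Pecam1, another vessel gene, was not called at -0.85, and the array of mdx animal B was above 0.

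Of 66 cell cycle probes 7 fell and 0 rose, against 1.97% and 0.962% of all probes, and 24 were below 0 in all 4 arrays, against 12.3% of all, with a median of -0.22. Ccnb2, a mitotic cyclin, was at -0.97, -0.48, -1.82 and -1.38, with the control arrays below both mdx arrays. Ccnd2, a G1 cyclin, and Stmn1, a microtubule-binding protein of dividing cells, had shared changes of -1.01 ± 0.15 and -0.97 ± 0.14. Kif20a, a mitotic kinesin, was not called, since it was at -2.03 in mdx array A and at -0.06 in mdx array B. Of the satellite cell and myogenic factor list 2 of 27 probes fell, both for inhibitors of myogenic transcription factors, with Id1 at -0.99, -0.05, -1.72 and -1.91 and Id2 at -0.90 ± 0.14.

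Genes known from immune cells were 4 of the 5 largest rises. Cd74, the invariant chain of antigen presentation, was at 2.06 and 1.12 in mdx and 2.36 and 1.54 in control arrays A and B, a shared change of 1.77 ± 0.21 (SE, n = 4; limma adjusted p = 0.0184). Ccl8, a chemokine, was at 2.23, 1.21, 1.94 and 1.64, and Retnla, a secreted protein of alternatively activated macrophages, at 1.52, 0.88, 2.21 and 1.82. For all 3 the lowest of the 4 values was that of mdx array B. Ccl6, another chemokine, was at 2.04, 1.09, 1.53 and 1.21. Of 34 macrophage and myeloid probes 4 rose and 0 fell (11.8% called, against 2.93% of all probes). In this list 11 were above 0 in all 4 arrays, against 10.7% of all, and the median was 0.25. By array the list's median was 0.47 in mdx array A, 0.335 in mdx array B, 0.23 in control array A and 0.07 in control array B. Besides Ccl6, the other 3 called were Cd52, a glycoprotein of leukocytes, Ccl9, a chemokine, and Itgb2, the integrin chain of leukocytes, at 1.25, 1.00 and 0.84. Their changes were 1.56, 1.28 and 1.11 in mdx and 0.94, 0.72 and 0.57 in control mice. Of 18 lymphocyte and antigen presentation probes 3 rose and 0 fell, with B2m, the light chain of class I molecules, at 0.79 ± 0.11 and 1 of 2 probes of Psmb8, an immunoproteasome subunit, at 0.62. Without the array of mdx animal B the macrophage list had 4 rises and the lymphocyte list 2.

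Other genes of these cells were not called. Lyz2, Msr1 and Itgam, which also mark myeloid cells, had shared changes of -0.22, -0.13 and -0.09 in the macrophage list. Cd4 and Cd79a, which mark T and B cells, were at 0.07 and 0.04. These genes were picked after their values were seen and do not stand for their lists. The shared change was above 0 in 27 of 34 macrophage and 15 of 18 lymphocyte probes, against 3292 of all 6754.

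Of the other 6 of the 10 largest rises, 5 were enzymes. Cbr2, a carbonyl reductase, was at 1.28, 1.42, 2.36 and 1.33, and Hsd11b1, which makes active glucocorticoid, at 0.78, 0.99, 2.34 and 1.67. Dpep1, a membrane dipeptidase, was at 1.29, 0.93, 2.04 and 1.40, and Inmt, an amine methyltransferase, at 0.74, 0.53, 2.50 and 1.87. Lpin1, a phosphatidate phosphatase of lipid synthesis, was the most even at 1.32, 1.23, 1.39 and 1.75. The control arrays of Inmt and Hsd11b1 lay above both mdx arrays. Hp, the plasma haemoglobin binder haptoglobin, was at 1.39, 0.88, 2.21 and 1.39.

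Other lists had few or no called probes. Over all probes 2.93% were called, and at that share lists of this length would hold few. Of the oxidative phosphorylation and TCA list 0 of 36 probes passed, with a median of -0.20, and of the ribosome and translation list 0 of 55, with a median of -0.15. Below 0 in all 4 arrays were 4 of these 36 and 12 of these 55 probes, against 12.3% of all. The shared change was above 0 in 11 of the 36 and 9 of the 55, against 3292 of all 6754. Glycolysis and glycogen had 1 rise and 1 fall among 30 probes, Pfkfb3 at 0.65 and Fbp2 at -0.69. The fatty acid list had 1 fall in 20, Fabp3 at -0.70, the neuromuscular junction list 1 fall in 15, Chrnb1 at -0.89, and the costamere list 1 rise, Sgcd at 0.70, and 1 fall, Lama2, among 31. In the clock list Dbp rose, at 0.97, 0.77, 1.29 and 0.93. The ion channel, insulin-like growth factor, Schwann cell, adipocyte, erythroid, cartilage, skin and immediate early lists had 0 called probes. Over these 8 lists the medians ranged from -0.07 to 0.13. The fit of all 36 arrays, in which 9.03% of all probes fell, called more in some lists. In it 5 of 20 insulin-like growth factor probes fell, 6 of 20 fatty acid, 7 of 31 costamere and 6 of 55 ribosome probes. The rest of the 8 lists had 0 to 2 rises and 0 or 1 fall each in that fit.

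Over the 4 direct arrays no probe passed the test of a difference between the strains in the change with age. By this test 0 of 6754 probes (0%) passed an adjusted p of 0.05 with limma, 215 had an unadjusted p under 0.05 and the lowest adjusted p was 0.667. The fit of all 36 arrays gave 6 (0.0888%). Since dye orientation was opposite in the strains, a dye effect left equally in both strains adds to this difference and cancels in the shared change, while an unequal one enters both. The dye terms of the strains correlated across probes at r = 0.64, with SDs of 0.179 in mdx and 0.263 in control mice. By size, changes were larger in control than in mdx mice for 152 of the 198 called probes, with a median absolute change of 0.84 in mdx and 1.21 in control mice, against 4278 of all 6754 probes with medians of 0.135 and 0.191. This difference in size was not tested, and the array of mdx animal B, whose ratios had the smallest spread, is 1 of the 2 mdx arrays.

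The probes with the lowest p for a difference between strains include 2 that moved in opposite directions. Lgals3, a galectin of macrophages, was at 1.68 and 1.76 in mdx and at -0.34 and -0.85 in control arrays A and B, a difference of 2.31 ± 0.26 (SE; limma adjusted p = 0.667, n = 2 arrays per strain). Ccl2, a monocyte chemokine, was at 1.60, 0.90, -0.74 and -0.42, a difference of 1.83 ± 0.31. This pattern, both mdx arrays one way and both control arrays the other, was found in 546 of 6754 probes (8.08%). Fbln2, a matrix glycoprotein, and Aloxe3, a lipoxygenase family member, stayed near 0 in mdx (0.03 and -0.01, and 0.09 and -0.04) and were at -1.45 and -1.53, and at -1.44 and -1.76, in control mice. Pla2g7, a phospholipase of plasma lipoproteins, was higher at 20 weeks in both strains and more so in control mice, at 0.69, 0.64, 2.03 and 1.87. None of these 5 differences passed over the 4 direct arrays, and those of Fbln2 and Aloxe3 were among the 6 that passed over all 36.

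**Figure D3:**
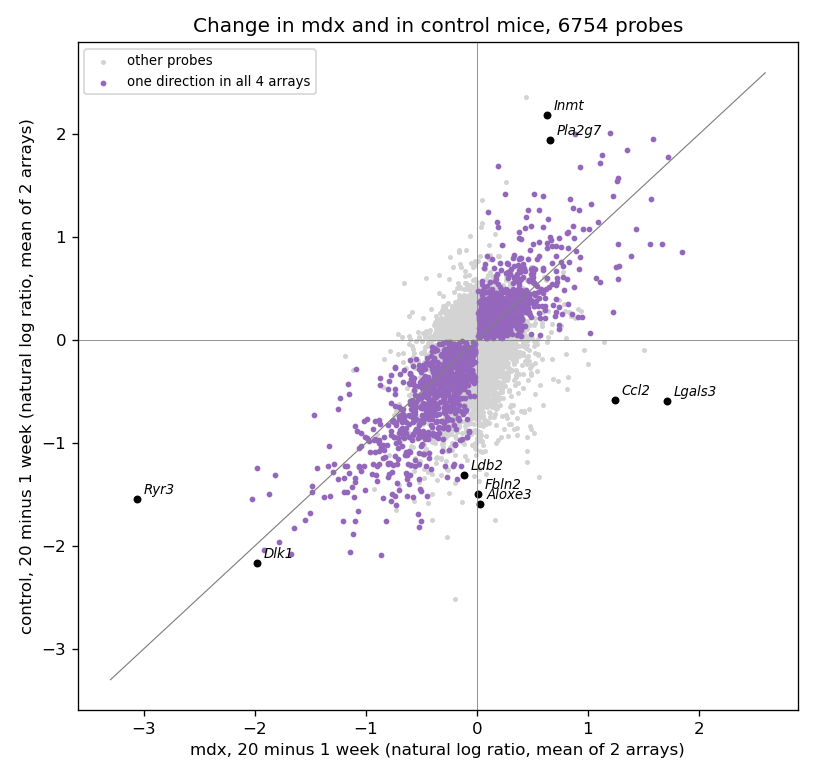
Change from 1 to 20 weeks in mdx (x axis) and in control mice (y axis), each the mean of 2 arrays as a natural log ratio, for 6754 probes. Purple points had one direction in all 4 arrays, the diagonal marks equal change, and Lgals3 and Ccl2 lie right of 0 and below it while Dlk1 lies close to the diagonal.

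The other 32 arrays close a loop over the 9 ages of each strain, and with the dye correction the loop's estimate of 20 minus 1 week is arithmetically the same as that of the direct arrays. The ages between are therefore not a second measurement of it. Before the dye was removed, the direct arrays and the chains of successive ages correlated only weakly across probes (r = 0.11, slope 0.31), with the same sign in 174 of the 198 called probes and in 3067 of all 6754. The dye correction takes in the arrays of successive ages, and the 198 were called after it. The share among them is therefore partly built in by that choice and is no independent agreement. The ages between are given as a description of the called probes, with the dye removed. For the 65 probes that rose, the median change from 1 week was 0.20 at 2.5 weeks, 0.72 at 4 weeks and 0.93 at 6 weeks, and 0.94 at 20 weeks. At 6 weeks its value was 1.24 for mdx against 0.69 for control animals. For the 133 that fell it was -0.30 at 2.5 weeks, -0.55 at 4 weeks and -0.71 at 6 weeks, and -0.98 at 10 weeks, against -1.002 at 20 weeks. At 4 weeks 46 of the 65 and 82 of the 133 had at least 0.5 of their change, against 3407 of all 6754 probes. These ages are given without a test.

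Dlk1 fell to -1.33 at 2.5 weeks and to -2.81 at 6 weeks, below its value of -2.07 at 20 weeks, as the mean of the strains. Tnni1 differed by strain in the weeks between, at 1.34 in mdx against -1.31 in control animals at 2.5 weeks, and -2.64 in control animals at 4 weeks. Lgals3 was highest in mdx at 6 weeks, at 3.35, and stayed between -0.71 and -0.18 in control mice. Retnla rose to 0.68 by 2.5 weeks and 1.35 by 6 weeks, and Col1a1 reached -0.98 only by 10 weeks.

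**Figure D4:**
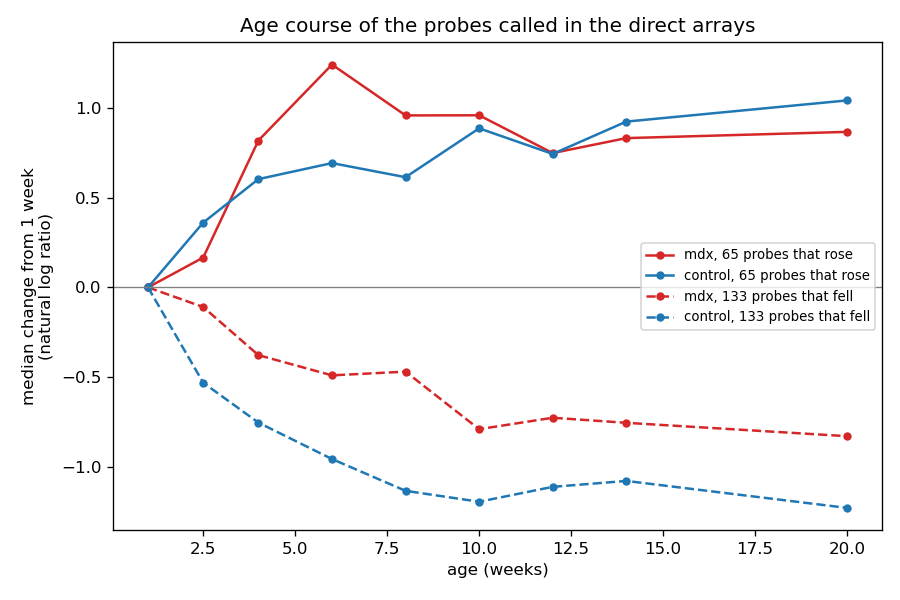
Median change from 1 week (y axis, natural log ratio) against age in weeks (x axis) for the 65 probes that rose (solid) and the 133 that fell (dashed), in mdx (red) and control mice (blue). The mdx rise is highest at 6 weeks, at 1.24, and falls lie lower in control than in mdx mice at every age after 1 week.

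The spread of the ratios was compared between the direct arrays and those of successive ages. The SD of the ratios over probes was 0.428 ± 0.0892 (SD, n = 4) for the direct arrays and 0.311 ± 0.0722 (SD, n = 32) for the arrays of successive ages, a difference of 0.116 (exact permutation test, two-sided, p = 0.00772). The direct arrays lay between 0.316 and 0.530 and the others between 0.198 and 0.558, so the ranges overlapped. Every animal was on 2 arrays of its loop, so the arrays that the test permutes are not independent. The highest of the others paired 14 and 20 weeks in control mice and shared 20-week animal A with the direct array of the highest spread. With the interquartile range in place of the SD, the difference was 0.0886 (exact permutation p = 0.0959), and without dye centring it was 0.0891 (p = 0.0835, exact).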

How the data were processed

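Hindlimb muscle RNA was linearly amplified, labelled and hybridised by the authors to oligonucleotide arrays with every probe printed in duplicate, 18 arrays per strain in a loop over 9 ages. The authors took spot intensities with GenePix Pro 3, subtracted local background and normalized with VSN, which compresses ratios near background. Each deposited value is the natural log of a ratio, the first channel divided by the second. Direction was checked against partly held averaged levels, with r = 0.84 in mdx and 0.90 in control mice across 815 accessions. For the log base, the slope of these levels on the ratios was 1.21 in mdx and 1.12 in control mice. The 15552 spots at 7776 positions had 0 missing values. Of these positions 938 without a name were left out, and the rest gave 6754 probes (6747 with 1 symbol, 7 with several, 6717 with an Entrez identifier in the RefSeq table of GRCm38.p6).

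The strain mean of 18 arrays was subtracted per spot, duplicates were averaged, and limma 3.58.1 in R 4.3.3 was fitted to the 4 direct arrays (mean and strain, 2 residual and 4.19 prior degrees of freedom), with Benjamini-Hochberg adjustment over all probes and a threshold of 0.05. Scripts were tested on simulated data. The precision is limited by 4 arrays. The p-values measure the spread between 2 arrays per strain, moderated over all probes. In that spread, differences between individuals and between hybridisations cannot be told apart. Lists were written from general knowledge (601 of 823 symbols matched), and the members and lists were chosen with earlier results of these data known. Genes were named by a rule: the 10 largest called rises and falls with one direction, up to 4 members of each list, all members of the imprinted, embryonic, fast and slow fibre lists, the 5 lowest p for the strain difference and the members nearest 0. Acta1 and Ckm, also outside it, were taken from a set of skeletal muscle markers. The other genes outside it (Lyz2, Msr1, Itgam, Cd4, Cd79a) were chosen after their values were seen. The alternatives were other centring, scaling, single spots, all positions, leaving out arrays, other variances, all 36 arrays, a replicate block, Bonferroni and no strain term.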

Additional observations from a re-analysis of the deposited data

Results flagged for a closer look

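In the fit of all 36 arrays the difference between strains in the change from 1 to 20 weeks passed limma's adjusted p for 6 of 6754 probes, and each is given as mdx minus control. It was 1.62 for Aloxe3, 1.502 for Fbln2, 1.20 for Ldb2, 0.98 for Rbpms and 1.44 for Pdlim1, which were lower at 20 weeks in control mice. It was -1.55 for Inmt, which was higher at 20 weeks in both strains and more so in control mice. With the 4 direct arrays alone none of these differences passed, each having a limma adjusted p of 0.999. For Pdlim1 the mdx arrays went opposite ways, at -0.62 and 0.36, and control mice were at -1.54 and -1.60. What the dye correction left in either strain adds to these differences, and its part in them was not tested.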

How the results depend on the processing

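The count of 198 shared changes was 226 without dye centring or with 1 dye mean for both strains (97 rose and 129 fell, 57.1% of calls being falls against 67.2%), 201 with arrays centred on their medians, 216 with arrays scaled alike (74.5% falls), 221 with the second spot, 198 with all positions (180 of them named probes) and 213 without the strain term. It was 100 with the first spot, 0 with each probe's own variance, 7 with Bonferroni and 865 with all 36 arrays, 195 of the 198 among them. Leaving out each array in turn gave 0 to 503. The one-direction count ranged from 1503 to 1887 under these settings, and from 1968 to 3089 with 1 array left out, when fewer arrays have to share a direction. The strain difference gave 0 under each of these settings and under the methods' t-test, and 6 with all 36 arrays. The letters of the 20-week animals are only a shared label. Deviations of A from B correlated across probes at r = 0.36 between strains, and a replicate block for the letter gave 1100 shared changes and 111 strain differences. The difference in spread between direct and other arrays was 0.124 (exact permutation p = 0.00166) without the steps next to 1 and 20 weeks, 0.0886 (p = 0.0959, exact) with the interquartile range and 0.0891 (p = 0.0835, exact) without dye centring. None of the 198 called probes changed sign under any of these settings. This was largely fixed beforehand, since 194 of them had one direction in all 4 arrays. Leaving out 1 array cannot turn the sign of these. The settings that alter only the variance, the adjustment or the model terms, and the fit of all 36 arrays, keep the same estimate.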
